A study of Mus musculus with 18 samples.

Results

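P10 sham hearts collected at P13 were compared with un-manipulated P10 hearts in GFP+ Tcf21-lineage cells, using 6 of the 18 bulk RNA sequencing libraries of the series. The 3 P10 baseline libraries and the 3 P10 sham +3 days libraries were chosen by their sample labels alone, and all 16170 genes that passed a filter on low counts were compared. All 6 libraries came from C57BL/6J pups that carried a Tcf21-MerCreMer allele and a Rosa-mTmG reporter and received tamoxifen at P1, so that cells in which the Tcf21 promoter was active at that time, and their descendants, carried membrane GFP. These cells were sorted from the enzymatically dissociated apical region of the ventricles, after the atria and valves had been removed. Baseline pups had no procedure and were collected at P10. Sham pups were cooled for anaesthesia at P10, their chest was opened and the heart was exposed without resection, they received buprenorphine, and they were collected 3 days later, at P13. The comparison therefore holds 3 days of growth, anaesthesia, analgesia and thoracotomy together, and these cannot be told apart. The number of pups in a library and their sex were not given in the sources used here. The p-values thus measure the spread between libraries, which the main fit took from all 18 and which may be partly technical.

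Cardiac fibroblasts make and remodel the interstitial matrix of the heart, and in the first postnatal weeks they pass from a proliferating to a matrix-secreting state. They are also sensors of tissue injury, since they release complement proteins, chemokines and alarmins and respond to interferons. The comparison addresses how their transcriptome moved over the days in which P10 sham animals recovered from surgery. The fibroblast label was checked on the libraries. Tcf21, the transcription factor whose locus drives the Cre, was at 232, 344 and 376 CPM in P10 baseline replicates 1 to 3 and at 231, 284 and 332 CPM in the sham replicates, where CPM are counts scaled to a common library size by TMM. The groups overlapped, and the log2 fold change was -0.17 (SE 0.26, adjusted p = 0.989). Pdgfra, a receptor that marks cardiac fibroblasts, averaged 529 ± 269 CPM (SD, n = 3) at baseline and 531 ± 302 CPM (SD, n = 3) after sham surgery. Col3a1, Col1a1, Sparc and Dcn, which encode matrix proteins of fibroblasts, were among the most abundant transcripts. Of the markers of other cells, those of mural cells summed to 1236 to 2064 CPM in the 6 libraries, cardiomyocyte markers to 163 to 821 CPM, endothelial markers to 307 to 545 CPM, and epicardial and lymphocyte markers to at most 9.57 CPM. Macrophage markers, 17 genes, summed to 18.7, 99.8 and 220 CPM at baseline and to 98.1, 396 and 317 CPM after sham surgery. In bulk samples, fewer cells of a type and less RNA per cell cannot be told apart.

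Between 10462737 and 21941305 reads were counted on genes per library, with medians of 17445283 at baseline and 21099151 after sham surgery. The replicates numbered 1 of both groups stood apart from the others. The chi-square per gene was 104 between P10 baseline 1 and P10 sham 1, but 173 to 175 between baseline 1 and the other baseline replicates and 160 to 172 between sham 1 and the other sham replicates. It was 37.3 between baseline replicates 2 and 3 and 37.6 between sham replicates 2 and 3, so no library repeats another. Both replicates numbered 1 held more reads on long genes, since the 5356 longest of 16067 genes were higher than in the mean of replicates 2 and 3 by a median of 0.48 on the log2 scale at baseline and 0.37 after sham surgery. The contrast of 3 sham with 3 baseline libraries was -0.05 for the same genes. Xist, the X-inactivation transcript, was at 153, 14.2 and 2.57 CPM at baseline and at 0, 0 and 27.6 CPM after sham surgery, and the Y-linked Ddx3y was at 0, 10.2 and 26.8 CPM and at 140, 39.1 and 0 CPM. Libraries of each group thus differed in these sex-linked genes.

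A single gene passed the test. With edgeR's quasi-likelihood test over all 18 libraries and Benjamini-Hochberg adjustment, 1 of 16170 genes was called higher after sham surgery (0.00618% of the genes tested) and 0 were called lower. Before adjustment, 1197 genes had a p under 0.05 (7.4%), 525 with higher values (3.25%) and 672 with lower values (4.16%). In 864 genes (5.34%) all 3 sham libraries lay above all 3 baseline libraries, and in 758 genes (4.69%) all lay below. DESeq2, the tool the authors used, called 121 genes (0.748%), of which 57 (0.353%) were higher and 64 (0.396%) lower. Among them, by DESeq2, were Angptl4 (adjusted p = 7.0e-12), Ly6a (adjusted p = 3.65e-06) and Srebf2 (adjusted p = 0.00234). The deviations of the P10 libraries from their group means were correlated between libraries of the same replicate number, so the numbers were also used as a block. With the block, the fit of 18 libraries called 1 gene, and a fit of the 6 libraries alone called 21 of 13439 genes (0.156%), 18 higher (0.134%) and 3 lower (0.0223%), against 1 gene in these 6 libraries without the block. Below, a gene is said to pass only where the fit is named, and the values of every other gene are given as measured. Genes of a list beyond its most abundant members were named after their values were seen.

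The gene called was Angptl4, which encodes a secreted inhibitor of lipoprotein lipase induced by fatty acids, fasting and glucocorticoids. Angptl4 lies on chromosome 17, from 33773750 to 33781830 on the minus strand of GRCm38. It was at 163, 148 and 129 CPM in the baseline libraries and at 405, 362 and 483 CPM in the sham libraries. Every sham library was above every baseline library by a wide margin, and the log2 fold change was 1.51 (SE 0.20, adjusted p = 0.0115). The adjusted p was 0.0145 with the replicate block in 18 libraries and 0.0357 with the block in 6 libraries, but 0.256 in the 6 libraries without the block. It was 0.152 without baseline replicate 2, 0.194 without baseline replicate 3 and 0.112 without sham replicate 3, and the log2 fold change stayed between 1.39 and 1.6 in the 6 fits that left out 1 library. In the P10 resected +3 days libraries, which share the P10 baseline, Angptl4 averaged 414 ± 42.4 CPM (SD, n = 3). At P2 the means were 120 ± 13.4 CPM in baseline hearts and 137 ± 10.5 CPM in sham hearts at P5 (SD, n = 3 each). The log2 fold change was thus 1.32 larger at P10 than at P2 (SE 0.28), a difference that did not pass the adjustment (adjusted p = 0.341).

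The other members of the lipid list did not move as a group. Of 25 genes for lipid handling and adipogenesis, 12 had a log2 fold change above 0 and 13 below, with a median of -0.11 beside -0.02 over all genes tested. Apoe, a lipoprotein of cholesterol transport, was at 644, 1056 and 922 CPM against 1075, 1442 and 1982 CPM, with no overlap (adjusted p = 0.672). Lpl, the lipase that Angptl4 protein inhibits, overlapped between the groups, at 992, 451 and 457 CPM against 1658, 577 and 843 CPM. The plot of single genes shows Angptl4 beside 11 genes described next.

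**Figure D1:**
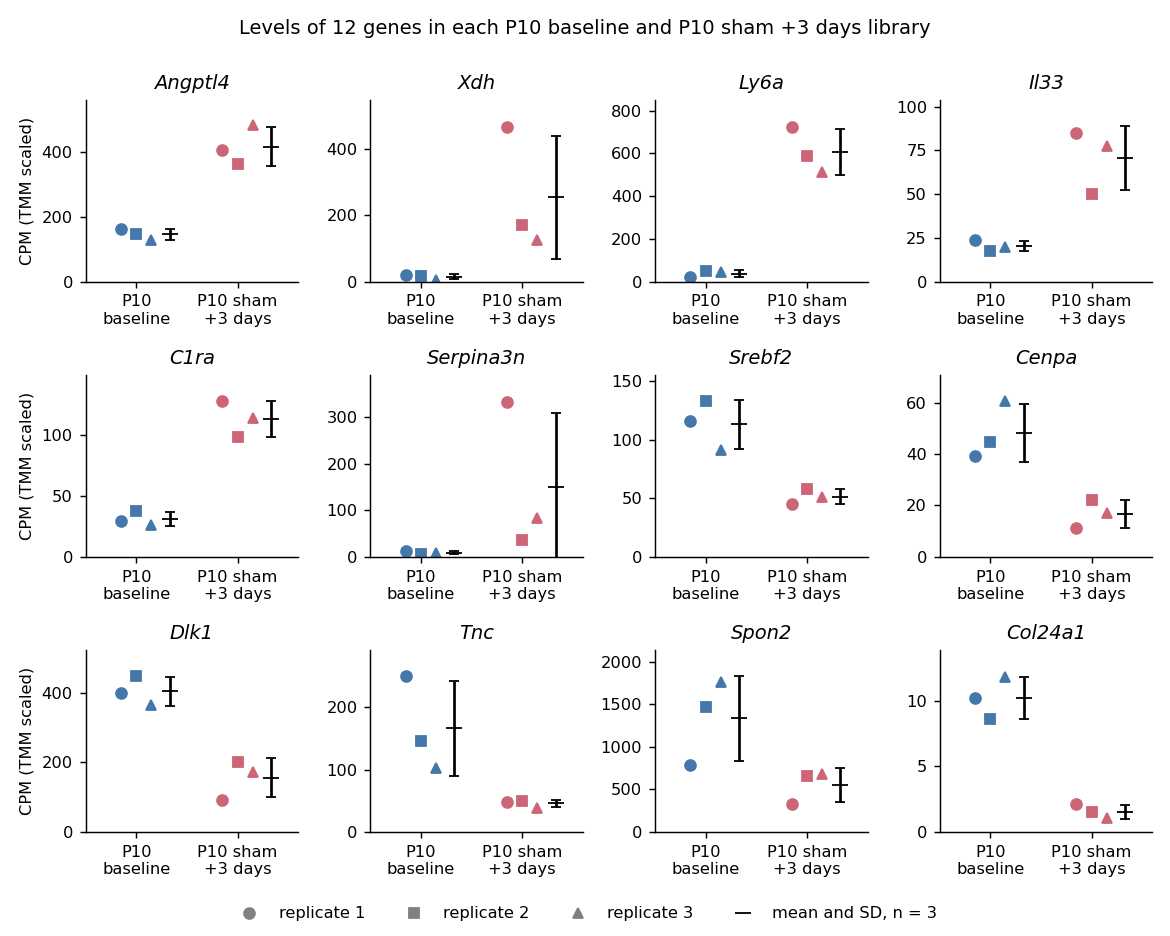
CPM of 12 genes in each library (y axis, linear from 0) for P10 baseline and P10 sham +3 days (x axis), with symbols for the replicate number and a bar for the mean and SD of 3 libraries, cut at 0 for Serpina3n. In all 12 genes the 3 sham libraries lie on one side of the 3 baseline libraries, and only Angptl4 passed the test over 18 libraries.

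Complement genes had higher values after sham surgery. Complement is a cascade of plasma and tissue proteins that tags cells and debris for removal, and fibroblasts secrete several of its early components and inhibitors. All 18 members tested had a log2 fold change above 0, with a median of 1.92 beside -0.02 over all genes. In 11 of the 18 the 3 sham libraries lay above the 3 baseline libraries, against 5.34% of all genes, while 0 of 18 passed in the 18-library fit. The proteases that start the classical pathway were among them. C1ra was at 29.5, 37.6 and 25.9 CPM at baseline and at 128, 98.4 and 113 CPM after sham surgery (log2 fold change 1.87, SE 0.47, adjusted p = 0.373), and C1s1 was at 29.2, 38.2 and 12.5 CPM against 154, 69.0 and 101 CPM. Both sets of sham values lay clear of the baseline. Masp1, a protease of the lectin pathway, was at 13.5 to 16.9 CPM against 21.1 to 71.0 CPM. C4b, another complement component, was at 3.64, 2.14 and 0.0987 CPM at baseline and at 47.2, 23.8 and 38.1 CPM after sham surgery (adjusted p = 0.292). Reads from C4b may be shared with its near-identical neighbour C4a, so its level is uncertain. C3, the central component, was at 3.64, 4.28 and 0 CPM against 135, 34.9 and 51.9 CPM (adjusted p = 0.401), with sham replicate 1 far above the others.

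An inhibitor of the cascade had higher values as well as its proteases. Serping1, the C1 inhibitor and the most abundant member, was at 1054, 1330 and 1407 CPM at baseline and at 2595, 2254 and 2544 CPM after sham surgery (log2 fold change 0.96, SE 0.26, adjusted p = 0.401). In the 6-library fit with the block, C1ra passed (adjusted p = 0.0391). The C1q chains C1qa, C1qb and C1qc, which are also macrophage markers, overlapped between the groups. Within replicate numbers 1, 2 and 3, the median difference of the list on the log2(CPM + 0.5) scale was 2.11, 1.30 and 0.92. Without both replicates numbered 1, 17 of 18 members were higher with no overlap, where 19.8% of all genes were. The summed level of the list was 1630, 1697 and 1791 CPM at baseline and 4732, 3139 and 3536 CPM after sham surgery. Macrophage markers summed to more in the sham library than in the baseline library of every replicate number, at 98.1 against 18.7 CPM in number 1, 396 against 99.8 CPM in number 2 and 317 against 220 CPM in number 3, and their part in the complement values was not tested. In P10 resected libraries the list averaged 4565 ± 2363 CPM (SD, n = 3). At P2, 16 of the 18 members were above 0, with a median of 0.74, and 5 were higher with no overlap (4.48% of all genes).

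Interferon-stimulated genes had higher values after sham surgery at P10 and lower values after sham surgery at P2. Interferons bind cell-surface receptors that activate a complex with STAT2 and IRF9, and this complex induces antiviral enzymes and their own feedback inhibitors. At P10, 33 of 35 members tested had a log2 fold change above 0 and the median was 1.07. In 15 of 35 the sham libraries lay above the baseline libraries with no overlap (5.34% of all genes) and in 0 below. At P2, 34 of 35 were at or below 0, the median was -1.62, and 24 of 35 were lower with no overlap (5.47% of all genes). For 25 of 35 members the difference between the ages had an unadjusted p under 0.05 and was positive, against 3.10% of all genes, and 0 genes of the table passed the adjusted test of that difference (smallest adjusted p = 0.282).

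Among the transducers, Irf9 was at 34.0, 41.0 and 37.3 CPM at P10 baseline and at 59.8, 98.3 and 58.9 CPM after sham surgery. Stat2 was at 11.6, 14.8 and 36.9 CPM against 53.4, 43.5 and 51.3 CPM. In both genes all sham libraries were above all baseline libraries, and neither passed (adjusted p = 0.648 for Irf9 and 0.682 for Stat2). Of the antiviral enzymes, Oas1a, which makes oligoadenylate messengers, was at 0, 0.107 and 0.0987 CPM at baseline and at 1.7, 4.85 and 1.6 CPM after sham surgery, a low level in every library (adjusted p = 0.246). Oasl2, a relative of Oas1a, was at 18.1, 7.87 and 12.1 CPM against 41.1, 28.7 and 25.7 CPM. Outside the list, the interferon-induced Ifitm3, a membrane protein that blocks virus entry, was at 445, 414 and 535 CPM against 938, 1068 and 991 CPM, and passed in the 6-library fit with the block (adjusted p = 0.0448), in which 0 members of the list passed. Usp18, which removes ISG15 from proteins and dampens the receptor, was at 2.97, 3.48 and 6.02 CPM against 17.0, 9.96 and 8.35 CPM. Usp18 also carried the smallest p of the interferon genes in the difference between the ages, since its means were 65.5 ± 20.4 CPM in P2 baseline hearts and 5.17 ± 2.74 CPM in P2 sham hearts (SD, n = 3 each). Reads of Ifit3 and Ifit3b, which are near-identical, may be shared. Ifit3 was at 6.12 to 8.45 CPM against 13.4 to 32.5 CPM, and Ifit3b at 0.789 to 3.22 CPM against 7.05 to 11.6 CPM.

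The summed level of the 35 interferon genes shows the levels behind these differences. Un-manipulated P2 hearts averaged 1792 ± 503 CPM (SD, n = 3) and P2 sham hearts 658 ± 92.0 CPM, while the means were 481 ± 20.1 CPM at P10 baseline and 838 ± 102 CPM in P10 sham hearts (SD, n = 3 each). The P10 sham libraries, at 774 to 956 CPM, were thus above the P10 baseline at 461 to 501 CPM and below the P2 baseline at 1405 to 2361 CPM. The P10 resected libraries were at 662 to 3834 CPM, with 1 library far above the other two. Within replicate numbers 1, 2 and 3 the median difference of the list at P10 was 1.05, 0.88 and 0.87, and 25 of 35 genes were higher in all 3, as were 2510 of all 16170 genes. Without the replicates numbered 1, 24 of 35 were higher with no overlap (19.8% of all genes).

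**Figure D2:**
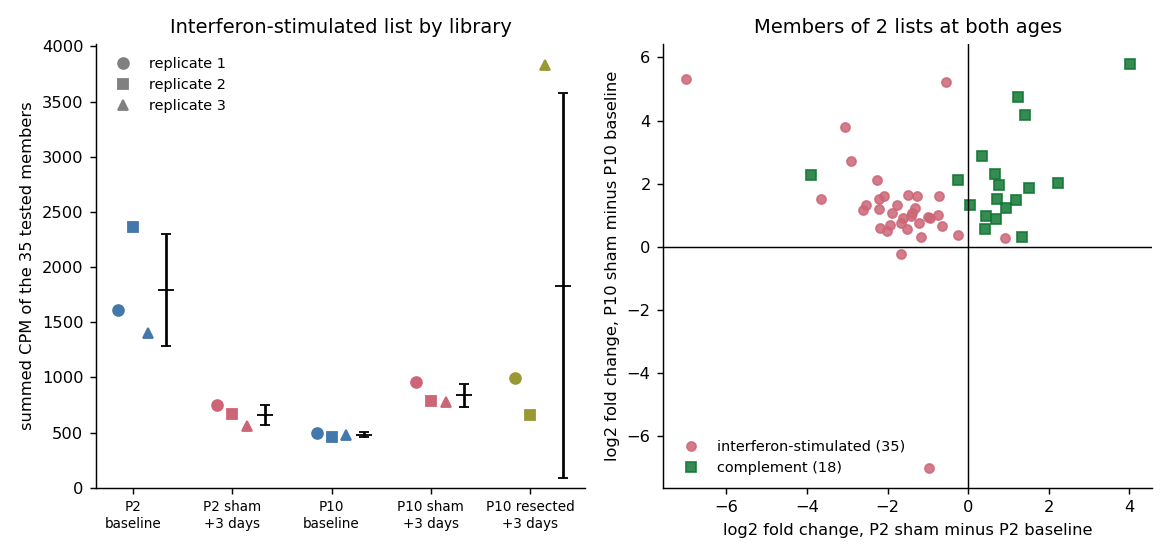
Left, summed CPM of the 35 interferon-stimulated genes (y axis, from 0) in each library of 5 groups (x axis), with mean and SD of 3 libraries. Right, log2 fold change of sham against baseline at P2 (x axis) and at P10 (y axis) for the 35 interferon-stimulated and 18 complement genes, where most interferon genes lie left of 0 and above 0 while most complement genes lie right of 0 and above 0.

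A promoter sequence was found for 25 of the 35 interferon genes in RefSeq (build GRCm38.p6), as 28 windows of 250 bases before the start site. The interferon-stimulated response element, searched on both strands as 2 copies of GAAA with 2 bases of any kind between them, was in 13 of the 28 windows (46.4%) and in 2.98% of all 32851 promoters. The windows below are written 5' to 3' on the strand of the gene, and capitals mark each match to a searched motif. Oas1a is shown as a member with a pair of overlapping response element matches near the start site, and B2m, the light chain of class I molecules, as an antigen presentation gene with such a match. Oas1a also holds CCAAT and TTTGAA, read here on the other strand as ATTGG and TTCAAA. B2m also holds a CCAAT match, a TTTGAA match and a match of the TATA element TATAAA, which is read here on the other strand. CCAAT was in 33.8%, TTTGAA in 16.0% and TATAAA in 12.4% of all promoters, and the response element was in 3 of 17 antigen presentation windows (17.6%).
Oas1a promoter, chr5:120907526-120907775, - strand: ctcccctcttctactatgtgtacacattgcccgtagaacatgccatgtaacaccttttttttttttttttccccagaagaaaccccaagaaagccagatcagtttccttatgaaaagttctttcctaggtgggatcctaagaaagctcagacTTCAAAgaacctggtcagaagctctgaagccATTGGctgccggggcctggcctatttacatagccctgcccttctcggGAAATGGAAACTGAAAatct
B2m promoter, chr2:122147437-122147686, + strand: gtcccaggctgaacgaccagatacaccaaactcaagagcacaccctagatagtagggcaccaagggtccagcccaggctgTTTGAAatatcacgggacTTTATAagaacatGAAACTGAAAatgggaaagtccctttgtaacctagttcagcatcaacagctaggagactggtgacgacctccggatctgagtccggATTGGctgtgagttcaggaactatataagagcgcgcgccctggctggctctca

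Class I antigen presentation, which interferons induce and which displays peptides on the cell surface, had the same direction. Of 21 members, 18 were above 0 (median 0.59), and 6 were higher with no overlap (5.34% of all genes). H2-D1, a class I heavy chain, was at 146, 212 and 214 CPM at baseline and at 356, 437 and 431 CPM after sham surgery (log2 fold change 1.10, SE 0.31, adjusted p = 0.419), and it passed in the 6-library fit with the block (adjusted p = 0.0428). H2-K1 was at 58.2 to 78.8 CPM against 130 to 173 CPM. Tapbp, which loads peptides, was at 70.1, 172 and 166 CPM against 280, 274 and 266 CPM, and B2m was at 404, 270 and 312 CPM against 648, 519 and 508 CPM. In these genes every sham library was above every baseline library. Class I heavy chain genes are similar in sequence, so reads that match several of them may have been left out.

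Chemokine, cytokine and acute-phase genes mostly had higher values. Of 36 members, 26 were above 0 and 7 below, with a median of 0.84, and 9 were higher and 1 lower with no overlap (5.34% and 4.69% of all genes). The median difference was 0.62, 0.31 and 0.43 within replicate numbers 1, 2 and 3. Il33, an alarmin that stromal cells hold in the nucleus and release on damage, was at 23.7, 17.7 and 20.0 CPM at baseline and at 84.9, 49.9 and 77.3 CPM after sham surgery (log2 fold change 1.79, SE 0.45, adjusted p = 0.373). Il33 passed in the 6-library fit with the block (adjusted p = 0.0448). The chemokine Ccl7, which attracts monocytes, was at 27.5, 14.4 and 18.1 CPM against 70.6, 53.0 and 59.9 CPM, with a clear gap between the groups. Hp, which encodes the acute-phase protein haptoglobin, was at 0, 0.268 and 0 CPM against 8.69, 2.39 and 5.89 CPM. It averaged 175 CPM in the P10 resected libraries. Serpina3n, an acute-phase protease inhibitor outside the list, was at 12, 5.73 and 8.19 CPM against 333, 35.7 and 83.4 CPM, and its range over the sham libraries was wide. Osmr, a receptor subunit for oncostatin M, was at 53.0, 11.8 and 6.51 CPM against 162, 54.1 and 49.1 CPM. The Osmr groups overlapped, but each sham library was above the baseline library of its number, and both Serpina3n (adjusted p = 0.0357) and Osmr (adjusted p = 0.0448) passed in the 6-library fit with the block.

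Macrophage markers were measured beside these groups. Of 17 markers, 14 were above 0 (median 1.42), 1 was higher with no overlap (5.88%, against 5.34% of all genes), and 0 passed. Without the replicates numbered 1, 11 of 17 markers were higher (64.7%) and 2 were lower (11.8%) with no overlap, where 19.8% and 17.7% of all genes were. Csf1r, the receptor for macrophage colony-stimulating factor, was at 0.546, 13.4 and 27.0 CPM at baseline and at 13.2, 40.2 and 17.1 CPM after sham surgery. Adgre1, which encodes F4/80, was at 0, 2.62 and 13.8 CPM against 2.80, 15.5 and 0.660 CPM, and Mrc1 was at 0, 2.57 and 0 CPM against 8.29, 4.53 and 4.43 CPM. The sum of the markers overlapped between the groups. Its part in the interferon, antigen presentation and cytokine differences was not tested either.

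**Figure D3:**
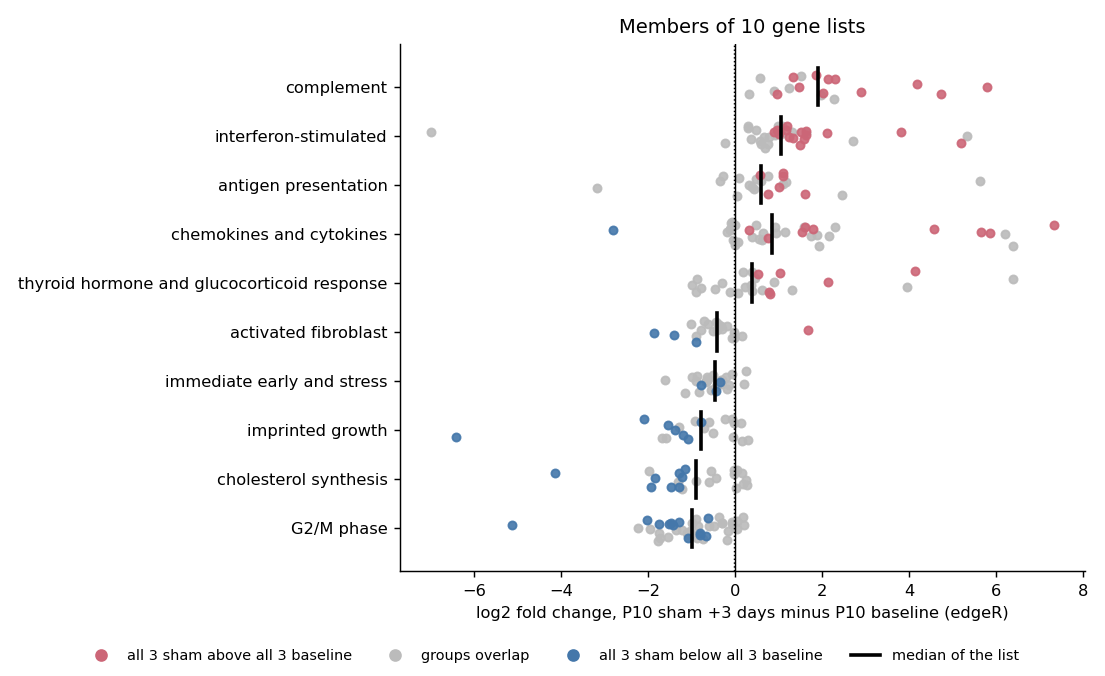
Log2 fold change of P10 sham +3 days minus P10 baseline (x axis) for every tested member of 10 gene lists (y axis). Points are genes, coloured by whether the 3 sham libraries lie above, below or among the 3 baseline libraries, bars are list medians and the dotted line is the median of all genes tested, and all 18 complement points lie right of 0.

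Of the list of fibroblast lineage and identity, the members that passed in the 6-library fit with the block were Ly6a and Ly6c1. Ly6a, which encodes the stem cell antigen Sca-1 found on adventitial and progenitor-like fibroblasts, was at 22.1, 48.6 and 45.6 CPM at baseline and at 725, 587 and 514 CPM after sham surgery. The groups were far apart, with a log2 fold change of 3.97 (SE 0.79, adjusted p = 0.207). Ly6a passed in the fit of the 6 libraries, both without the block (adjusted p = 0.0467) and with it (adjusted p = 0.0178). Its neighbour Ly6c1 was at 13.0, 21.2 and 29.7 CPM against 231, 235 and 170 CPM, and passed with the block (adjusted p = 0.0260). Ly6 genes form a cluster of similar sequences on chromosome 15, so reads that match several of them may have been left out. At P2, Ly6a averaged 11.4 ± 5.16 CPM in baseline and 23.7 ± 15.9 CPM in sham hearts (SD, n = 3 each), and the difference between the ages did not pass (adjusted p = 0.590). In the P10 resected libraries it averaged 1003 CPM. Scara5, a ferritin receptor of the same fibroblasts, was at 310, 383 and 283 CPM against 1022, 537 and 526 CPM, and Pi16 was at 463, 863 and 984 CPM against 1504, 1279 and 1233 CPM. Of the 29 genes for fibroblast lineage and identity, 6 were higher with no overlap (5.34% of all genes) and 2 were lower (4.69%), with a median of -0.09. Gata4, a transcription factor of cardiac mesoderm, was lower with no overlap, at 276, 406 and 358 CPM against 199, 267 and 268 CPM (adjusted p = 0.651).

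Other genes with small p-values and no overlap did not form a list. Xdh, xanthine dehydrogenase, which makes uric acid, was at 22, 17.9 and 6.12 CPM at baseline and at 467, 172 and 126 CPM after sham surgery (adjusted p = 0.207), and had the smallest adjusted p in the 6-library fit with the block (0.0109). Mgst1, a glutathione transferase of membranes, was at 7.77, 12.1 and 17.4 CPM against 106, 66.2 and 71.1 CPM (adjusted p = 0.15). Htra4, a secreted serine protease, was at 10.1 to 13.4 CPM against 39.2 to 62.3 CPM (adjusted p = 0.135), with 32.9% of its exon bases shared with an antisense gene. Gsn, which encodes the actin-severing protein gelsolin, was one of the 4 most abundant transcripts of the sham group and was at 4769, 8398 and 8399 CPM against 16685, 13628 and 15255 CPM (log2 fold change 1.08, SE 0.23, adjusted p = 0.270). Mgp, an inhibitor of calcification, was at 797, 608 and 506 CPM against 1688, 1607 and 1213 CPM, and passed with the block (adjusted p = 0.0260). Tubb3, Ms4a4d, Slc43a3 and A4galt also had no overlap and did not pass over the 18 libraries, with adjusted p between 0.207 and 0.292. Of these, Ms4a4d and A4galt passed in the 6-library fit with the block (adjusted p = 0.0357 and 0.0387). Ptgfr, the receptor for prostaglandin F2-alpha, had no read in any baseline library and was at 7.54, 5.11 and 5.05 CPM after sham surgery, at least 89.1-fold higher, with the floor set at 3 counts over the baseline group. In all, 292 genes had no read in the baseline libraries and exceeded that floor after sham surgery, and 406 genes had no read in the sham libraries and exceeded it at baseline.

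Some glucocorticoid and thyroid hormone response genes had higher values. Glucocorticoids rise with stress and growing pups also have rising thyroid hormone. Of 25 members, 18 were above 0 (median 0.39) and 6 were higher and 0 lower with no overlap (5.34% and 4.69% of all genes). Tsc22d3, which encodes GILZ and is induced by glucocorticoids, was at 105, 235 and 263 CPM at baseline and at 580, 395 and 266 CPM after sham surgery. Zbtb16, a transcription factor with the same inducer, was at 0.482 to 1.40 CPM against 37.7, 5.30 and 5.71 CPM, and Hsd11b1, which regenerates active glucocorticoid inside cells, was at 7.28, 6.05 and 2.76 CPM against 42.9, 12.7 and 15.1 CPM. In all of them sham replicate 1 was the highest library. None of them passed (adjusted p = 0.651, 0.575 and 0.419). Dusp1, another target, overlapped at 581 to 1561 CPM against 732 to 974 CPM.

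Lower values after sham surgery were found in the mitotic genes. The G2/M list holds kinesins, centromere proteins and regulators that cells express as they enter mitosis. Of 43 members tested, 39 were below 0 (median -1), 12 were lower and 0 higher with no overlap (4.69% and 5.34% of all genes), and 0 passed in the 18-library fit. Without sham replicate 2, Bub1 of the list was called lower (adjusted p = 0.00195), as were Iqgap3, Troap and Cdc25c, which also act in mitosis (adjusted p = 0.00745, 0.0109 and 0.0018). These genes had no read in sham replicates 1 and 3, and in sham replicate 2 Bub1 was at 3.1 CPM. Cenpa, the histone variant of centromeres, was at 39.4, 44.6 and 60.8 CPM at baseline and at 11.1, 22 and 17.2 CPM after sham surgery (log2 fold change -1.52, SE 0.41, adjusted p = 0.401). Cenpe, a kinetochore motor, was at 20.9, 4.76 and 5.03 CPM against 0.0499, 0 and 0.754 CPM (adjusted p = 0.207). Kif20a, a kinesin of cytokinesis outside the list, was at 20.8, 16.1 and 18.2 CPM against 1.15, 6.92 and 3.35 CPM (adjusted p = 0.292), and 29.3% of its exon bases overlap another gene on the other strand. Tpx2, which nucleates spindle microtubules, was at 20.6 to 36.8 CPM against 2.60 to 14.3 CPM. In these genes every sham library was below every baseline library. Others overlapped, since Top2a was at 76.3, 17.4 and 14.8 CPM against 29.7, 19.8 and 7.54 CPM, and Mki67, a marker of cycling cells, was at 90.0, 6.42 and 2.66 CPM against 16.0, 5.76 and 3.82 CPM, highest in both replicates numbered 1.

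The size of the mitotic difference followed the replicate number. The median of the list was -1.41 within number 1, -0.13 within number 2 and -0.75 within number 3, and the number of members above 0 was 3, 15 and 11 of 43. Without both replicates numbered 1, 18 of 43 were lower with no overlap (17.7% of all genes). The list summed to 1277 to 1775 CPM at baseline and to 1058 to 1198 CPM after sham surgery. At P2 it averaged 3797 ± 170 CPM (SD, n = 3) at baseline and 3770 ± 519 CPM (SD, n = 3) in sham hearts, and the list median was -0.01. For 10 of 43 members the difference between the ages had an unadjusted p under 0.05 and was negative (3.49% of all genes), and 0 passed the adjustment. The P10 resected libraries averaged 1386 ± 363 CPM (SD, n = 3). The S phase list was less one-sided, with 26 of 38 members below 0, a median of -0.41, and 5 lower and 1 higher with no overlap (4.69% and 5.34% of all genes). Its median was -0.56 within number 1, 0.19 within number 2 and -0.09 within number 3. Without both replicates numbered 1, 11 of 38 members were higher (28.9%) and 8 lower (21.1%) with no overlap, where 19.8% and 17.7% of all genes were. Within all 3 numbers, 10 members were lower and 3 higher, as were 2449 and 2510 of all 16170 genes. Mcm6, a subunit of the replicative helicase, was at 98.8, 118 and 121 CPM against 61.9, 93.1 and 69.8 CPM (adjusted p = 0.646). The cell cycle inhibitors had 0 of 16 members without overlap in the 6 libraries, but without the replicates numbered 1, 7 of 16 were lower (43.8%) and 2 higher (12.5%), where 17.7% and 19.8% of all genes were. They summed to 2187, 2004 and 1967 CPM at baseline and to 2352, 1148 and 1140 CPM after sham surgery, and Cdkn1c was at 126 to 235 CPM against 144 to 218 CPM.

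Cholesterol synthesis genes also had lower values. The transcription factor SREBP2, encoded by Srebf2, induces the enzymes of the sterol pathway when sterols are scarce. Of 23 members, 17 were below 0 (median -0.89), 8 were lower and 0 higher with no overlap (4.69% and 5.34% of all genes), and 10 had an unadjusted p under 0.05 with lower values (4.16% of all genes). Srebf2 itself was at 116, 133 and 91.1 CPM at baseline and at 45.0, 57.7 and 51.2 CPM after sham surgery (log2 fold change -1.15, SE 0.26, adjusted p = 0.292). Sqle, the squalene epoxidase, was at 14.9, 14.4 and 35.9 CPM against 5.29, 5.76 and 6.04 CPM (log2 fold change -1.93, SE 0.44, adjusted p = 0.292). Cyp51 was at 43.1, 24.7 and 22.9 CPM against 5.49, 13.9 and 17.4 CPM. All 3 genes were lower in every sham library than in any baseline library. Hmgcs1, of an early step, overlapped, at 31.2 to 76.9 CPM against 23.5 to 38.4 CPM.

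The direction of the cholesterol list was the same within each replicate number. The median difference was -0.64, -0.49 and -0.48 for numbers 1, 2 and 3, although 11 of 23 members were above 0 within number 2. The summed level of the list was 534 to 681 CPM at baseline and 366 to 385 CPM after sham surgery, and it was 365 to 387 CPM in the P10 resected libraries. At P2 it averaged 459 ± 38.6 CPM (SD, n = 3) at baseline and 475 ± 71.9 CPM (SD, n = 3) in sham hearts. The list median was -0.05 at P2, and for 7 of 23 members the difference between the ages had an unadjusted p under 0.05 and was negative (3.49% of all genes).

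The motif CCAAT, bound by the factor NF-Y, was in 32 of 42 promoter windows of G2/M genes (76.2%) and in 16 of 19 windows of cholesterol genes (84.2%), against 33.8% of all promoters. The motif TTTGAA of cell cycle genes was in 33.3% of the G2/M windows. CCAAT was also in 88.2% of antigen presentation windows and 75.9% of secretory machinery windows, so it is not particular to the G2/M and cholesterol lists. The Cenpa window, with a pair of CCAAT matches, and the Srebf2 window, with 1 match, are shown as members with the element. Both are written 5' to 3' on the strand of the gene, and the capitals ATTGG mark CCAAT read on the other strand.
Cenpa promoter, chr5:30666636-30666885, + strand: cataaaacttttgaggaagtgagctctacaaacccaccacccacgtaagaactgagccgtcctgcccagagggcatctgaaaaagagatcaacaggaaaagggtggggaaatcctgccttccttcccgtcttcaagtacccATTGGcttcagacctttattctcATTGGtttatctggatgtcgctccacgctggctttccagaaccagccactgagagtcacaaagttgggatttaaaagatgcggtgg
Srebf2 promoter, chr15:82147019-82147268, + strand: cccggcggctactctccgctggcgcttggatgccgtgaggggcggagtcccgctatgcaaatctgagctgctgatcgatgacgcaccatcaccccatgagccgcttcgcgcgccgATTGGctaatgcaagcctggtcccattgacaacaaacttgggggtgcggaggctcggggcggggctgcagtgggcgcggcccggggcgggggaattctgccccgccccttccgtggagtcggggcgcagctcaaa

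Imprinted genes of fetal growth had lower values within each replicate number. These genes are expressed from 1 parental allele, and several are switched down together as growth slows after birth. Of 21 members, 18 were below 0 (median -0.79), and 7 were lower and 0 higher with no overlap (4.69% and 5.34% of all genes). Dlk1, a membrane protein of progenitor cells that inhibits adipogenesis, was at 398, 449 and 365 CPM at baseline and at 92.9, 202 and 171 CPM after sham surgery (log2 fold change -1.38, SE 0.36, adjusted p = 0.38). Mest was at 794, 798 and 708 CPM against 370, 524 and 440 CPM, and H19, a non-coding RNA, was at 291, 467 and 389 CPM against 73.2, 232 and 196 CPM. Igf2, a fetal growth factor, was at 120, 72.1 and 70.4 CPM against 36.8, 41.9 and 45.3 CPM, and 62.8% of its exon bases lie under another annotated gene on the same strand. In all 4 genes the groups did not overlap. The median difference of the list was -0.74, -0.61 and -0.63 within numbers 1, 2 and 3, and 13 of 21 members were lower in all 3, as were 2449 of all 16170 genes. Without the replicates numbered 1, 12 of 21 were lower with no overlap (17.7% of all genes). At P2, with higher levels, 16 of 21 members were at or below 0 (median -0.39). Dlk1 at P2 averaged 1261 ± 223 CPM in baseline and 698 ± 118 CPM in sham hearts (SD, n = 3 each), also with no overlap.

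Activated fibroblast genes mostly had lower values, and most matrix genes overlapped. Of 20 activated fibroblast genes, 18 were below 0 (median -0.43), 3 were lower with no overlap and 1 was higher (4.69% and 5.34% of all genes). Tnc, a matrix glycoprotein of developing and injured tissue, was at 250, 146 and 103 CPM at baseline and at 48.0, 50.2 and 39.2 CPM after sham surgery (log2 fold change -1.86, SE 0.48, adjusted p = 0.383). It passed in the 6-library fit with the block (adjusted p = 0.0448). Postn, the matricellular protein periostin, was at 13334, 4388 and 3819 CPM against 6695, 2945 and 4350 CPM and overlapped. Acta2, the smooth muscle actin of myofibroblasts, was at 462, 772 and 664 CPM against 247, 531 and 552 CPM and also overlapped. Timp1, an inhibitor of matrix proteases, was the member with higher values, at 12.4, 17.2 and 26.7 CPM against 49.5, 68.5 and 62.8 CPM (adjusted p = 0.401). In the P10 resected libraries Timp1 averaged 304 CPM and Tnc 153 CPM.

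Of 31 genes for fibrillar collagens and their processing, 1 was higher (3.23%) and 2 were lower (6.45%) with no overlap, near the 5.34% and 4.69% of all genes, and the median was -0.13. Col24a1, a minor fibrillar collagen, was at 10.2, 8.61 and 11.8 CPM at baseline and at 2.10, 1.49 and 1.04 CPM after sham surgery. Its groups were well apart, and its adjusted p of 0.133 was the smallest after that of Angptl4. Col1a1, the chain of the main fibrillar collagen, was at 15578, 12370 and 10216 CPM against 8812, 5856 and 9089 CPM, lower in every sham library (log2 fold change -0.68, SE 0.35, adjusted p = 0.696). Col3a1 overlapped, at 34346 to 54921 CPM against 34502 to 46931 CPM. Basement membrane genes had 0 of 23 members without overlap. Outside these lists, Spon2, a secreted pattern-recognition protein, was at 787, 1463 and 1758 CPM against 324, 656 and 684 CPM, and Megf6, a secreted protein with EGF repeats, was at 201, 304 and 259 CPM against 78.7, 114 and 112 CPM. Both were lower in every sham library and passed in the 6-library fit with the block (adjusted p = 0.0260 and 0.0355).

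Immediate early genes and ribosomal genes depended on the replicate number. Immediate early genes respond within minutes to growth factors, stress or tissue handling. Of 29 members, 27 were below 0 (median -0.47), and 3 were lower and 0 higher with no overlap (4.69% and 5.34% of all genes). Without the replicates numbered 1, 25 of 29 were lower with no overlap (17.7% of all genes), with medians of -0.89 and -0.69 within numbers 2 and 3 and 0.06 within number 1. Klf2, a transcription factor sensitive to flow and stress, was at 617, 950 and 856 CPM at baseline and at 450, 478 and 479 CPM after sham surgery (adjusted p = 0.432). Fos was at 2504, 3028 and 2310 CPM against 3414, 1406 and 1455 CPM, and Atf3 at 305, 332 and 243 CPM against 433, 84.4 and 84.6 CPM. In both genes sham replicate 1 was the highest of the 6 libraries and the other sham replicates were the lowest. For 65 ribosomal protein genes the median difference was -0.23 within number 1 and 0.23 and 0.22 within numbers 2 and 3, and 41 were higher with no overlap in replicates 2 and 3 (19.8% of all genes). With all 6 libraries 1 was higher and 1 lower with no overlap.

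**Figure D4:**
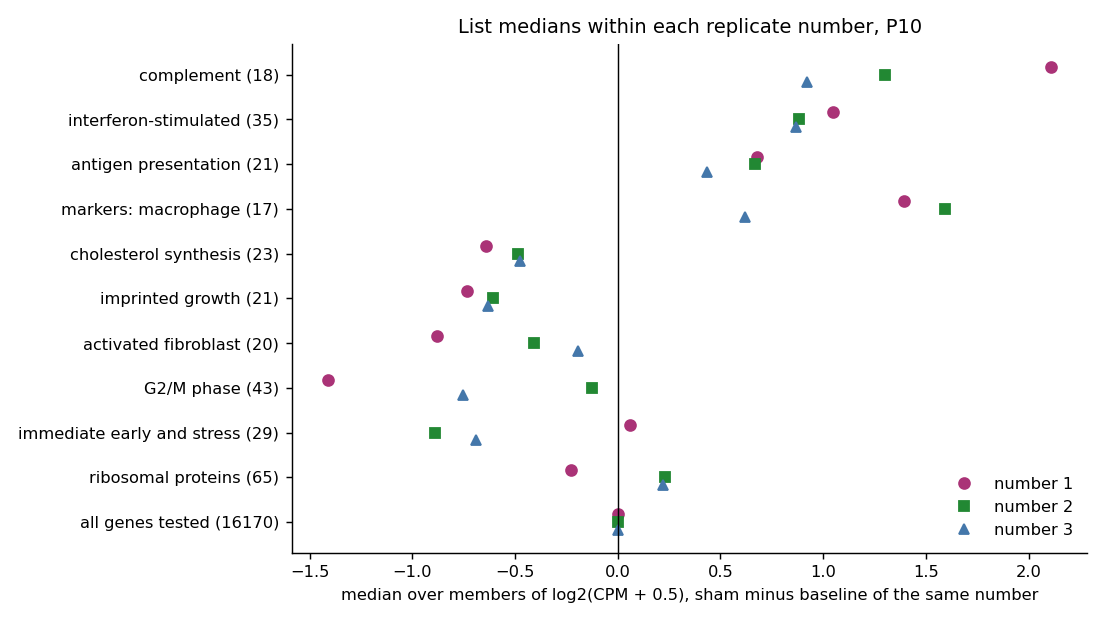
Median over the members of each list of the difference in log2(CPM + 0.5) between the sham and the baseline library of the same replicate number (x axis), for 10 lists and all genes tested (y axis, number of members in brackets). The complement, interferon and antigen presentation medians are above 0 and the cholesterol, imprinted and G2/M medians below 0 within all 3 numbers, while the immediate early and ribosomal medians change sign in number 1.

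The contrast was set against the same contrast at P2, which shares no library with it. At P2, sham hearts at P5 against baseline gave 0 called genes with edgeR, 1229 genes with p under 0.05 before adjustment (7.6%; 670 or 4.14% higher and 559 or 3.46% lower) and 138 with DESeq2 (0.853%; 95 or 0.588% higher and 43 or 0.266% lower). The difference between the ages gave 0 called genes with edgeR, 1067 with p under 0.05 before adjustment (6.6%) and 102 with DESeq2 (0.631%), of which 49 (0.303%) had the higher log2 fold change at P10 and 53 (0.328%) at P2. The genes with the smallest p in that difference, none of which passed, were Usp18, Angptl4, Igfbp3, Aspa and Cnmd, with the higher log2 fold change at P10, and Fjx1, Vtn, Higd1b, Gm13889 and Sertad4, with the higher one at P2. Igfbp3, which binds insulin-like growth factors, averaged 107 ± 27.5 CPM at P10 baseline and 383 ± 122 CPM in P10 sham hearts, but 215 ± 86.9 and 76.5 ± 11.8 CPM at P2 (SD, n = 3 each, adjusted p of the difference 0.341). Vtn, which encodes vitronectin and is also a mural marker, averaged 0.958 ± 1.22 CPM in P2 baseline and 17.2 ± 4.70 CPM in P2 sham hearts, and 138 ± 45.3 and 106 ± 13.9 CPM at P10 (SD, n = 3 each).

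The remaining lists are given by their members without overlap, which were 5.34% higher and 4.69% lower over all genes. Of 38 genes of TGF-beta, BMP and Wnt signalling, 1 was higher and 4 were lower (10.5%) with no overlap, with a median of -0.01. Wnt11, a non-canonical Wnt ligand, was the higher one, at 10.0, 21.9 and 24.0 CPM at baseline and at 38.3, 45.7 and 40.3 CPM after sham surgery. Of 35 matrix proteases and inhibitors, 3 were higher (8.57%) and 6 lower (17.1%), and of 68 other matrix glycoproteins and proteoglycans, 4 were higher and 5 lower. For the IGF axis 3 of 21 were higher (14.3%) and 2 lower (9.52%), for retinoid handling 2 of 20 were higher and 0 lower, and for the clock 1 of 19 was higher and 0 lower. Adh1, a retinol-oxidizing dehydrogenase, had no read at baseline and was at 3.60, 1.88 and 3.40 CPM after sham surgery, at least 44.6-fold higher. Of 30 antioxidant genes, 3 were higher, 2 of 30 glycolytic and hypoxia genes were higher and 3 lower, and 1 of 34 secretory machinery genes was lower. Of 72 oxidative phosphorylation genes, 1 was higher and 0 lower, with a median of 0.05. The mural markers had 10 of 10 members below 0, with sums of 1520 to 2064 CPM at baseline and 1236 to 1346 CPM after sham surgery, and 0 of 10 without overlap, but 5 of 10 were lower with no overlap without the replicates numbered 1 (17.7% of all genes). The cardiomyocyte markers had 10 of 12 below 0 and 1 lower with no overlap, with sums that overlapped, and the endothelial, epicardial, erythroid, lymphocyte and Schwann cell markers had at most 1 member each without overlap. Without the replicates numbered 1, where 19.8% of all genes were higher and 17.7% lower with no overlap, 10 of 21 antigen presentation, 16 of 36 chemokine and cytokine, 14 of 25 hormone response and 13 of 30 antioxidant genes were higher, and 1, 4, 2 and 1 of them were lower. In the same libraries 11 of 23 cholesterol, 10 of 20 activated fibroblast, 10 of 31 fibrillar collagen, 7 of 23 basement membrane, 22 of 68 other matrix, 12 of 35 matrix protease and 8 of 21 IGF axis genes were lower, and 2, 2, 5, 3, 15, 8 and 5 of them were higher. Of the markers, 3 of 4 lymphocyte and 2 of 7 erythroid genes were lower and 0 higher. Schwann cell markers had 3 of 4 higher and 1 lower, endothelial 2 of 10 higher and 1 lower, and epicardial 2 of 9 in each direction.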

How the data were processed

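Per the labels and the study's methods, GFP+ cells were sorted, RNA was amplified from small inputs, and single-end reads were trimmed with fastp 0.20.0, aligned with STAR 2.7.0f to GRCm38.p6 and assigned to GENCODE genes without strand by featureCounts of Subread 1.6.4. The deposited values are raw counts per gene symbol, 55453 symbols in 18 libraries, of which 28906 had at least 1 count. Without strand, antisense and overlapping genes share reads.

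Counts were analysed in R 4.3.3 with edgeR 4.0.16, TMM scaling and filterByExpr (minimum count 10, minimum total 15), which left 16170 genes. The quasi-likelihood test was fitted over all 18 libraries in 6 groups (12 residual degrees of freedom), and p-values were adjusted by Benjamini-Hochberg with a threshold of 0.05. The study's tool, DESeq2 (version 1.42.0), and limma voom (3.58.1) were alternatives, beside other scalings, filters, each library left out and the replicate block. Median log2 fold change over all genes was -0.02. The scripts were tested on simulated data.

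Deviations from the group mean of P10 libraries with the same replicate number, a number in the labels, correlated at 0.328, 0.107 and 0.125. The numbers were therefore taken to pair these libraries, a choice made from these data that the labels do not state. Baseline replicate 3 correlated more with sham replicate 2 (0.193). At P2 the correlations were -0.0029, -0.13 and -0.00094.

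Genes were named by a rule: those called or of smallest p without overlap, the largest fold changes among them, the members of each list that were called or most abundant, and the smallest p in the difference between ages. Further genes were chosen after their values were seen. Some genes that the rule would name are not reported here. The 36 lists and the comparison were chosen with earlier results of these data known, so list counts are descriptions. CPM were computed from the counts, and summed CPM of a list weights abundant members.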

Additional observations from a re-analysis of the deposited data

Results flagged for a closer look

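The summed level of the 35 interferon-stimulated genes was above the baseline libraries in all P10 sham libraries and below them in all P2 sham libraries. The ratio of sham to baseline was 1.74 at P10, and the difference of that sum between the ages was not tested. Over all 16170 genes, 48 (0.297%) lay above the baseline libraries at P10 and below them at P2, and 32 (0.198%) the reverse, while 9 of the 35 interferon genes did the first and 0 the second. Among the genes checked for this, 14 had sham libraries on opposite sides of the baseline libraries. The check covered genes named by the rule, those passing in the 6-library fit with the block and further genes named in the text. Some genes named in the text, such as Klf2 and Hsd11b1, were not checked. Some were named for a small p in this very difference. None of the 14 passed edgeR's quasi-likelihood test of the difference after Benjamini-Hochberg adjustment. All means below are over 3 libraries with their SD.

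Usp18, the ISG15 protease described above, averaged 4.16 ± 1.63 CPM at P10 baseline and 11.8 ± 4.62 CPM in P10 sham hearts, and 65.5 ± 20.4 and 5.17 ± 2.74 CPM at P2, a difference in log2 fold change of 5.17 (adjusted p = 0.282). Irf9, the DNA-binding subunit of the interferon-activated complex, averaged 37.4 ± 3.51 CPM at P10 baseline and 72.4 ± 22.5 CPM in P10 sham hearts, and 85.8 ± 14.8 and 42.9 ± 8.02 CPM at P2, a difference in log2 fold change of 1.95 (adjusted p = 0.555). Slc43a3, a purine nucleobase transporter, averaged 389 ± 57.7 CPM at P10 baseline and 1039 ± 406 CPM in P10 sham hearts, and 494 ± 20.1 and 323 ± 90.1 CPM at P2, a difference in log2 fold change of 2.03 (adjusted p = 0.341). Igfbp3, the binding protein of insulin-like growth factors, averaged 107 ± 27.5 CPM at P10 baseline and 383 ± 122 CPM in P10 sham hearts, and 215 ± 86.9 and 76.5 ± 11.8 CPM at P2, a difference in log2 fold change of 3.32 (adjusted p = 0.341). Aspa, which encodes aspartoacylase, averaged 0.799 ± 0.347 CPM at P10 baseline and 8.87 ± 2.82 CPM in P10 sham hearts, and 1.53 ± 0.776 and 0.109 ± 0.188 CPM at P2, a difference in log2 fold change of 7.31 (adjusted p = 0.341).

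Of these 14 genes, 5 were lower at P10 and higher at P2. Fjx1, which encodes a secreted kinase-like protein, averaged 27.7 ± 2.24 CPM at P10 baseline and 10.4 ± 3.75 CPM in P10 sham hearts, and 7.89 ± 0.828 and 21.3 ± 6.18 CPM at P2, a difference in log2 fold change of -2.84 (adjusted p = 0.282). Gm13889, a gene model, averaged 49.5 ± 4.76 CPM at P10 baseline and 25.7 ± 5.92 CPM in P10 sham hearts, and 10.8 ± 2.11 and 25.6 ± 9.75 CPM at P2, a difference in log2 fold change of -2.19 (adjusted p = 0.341). Sertad4, a SERTA domain protein, averaged 196 ± 8.46 CPM at P10 baseline and 111 ± 11.8 CPM in P10 sham hearts, and 103 ± 6.31 and 154 ± 16.2 CPM at P2, a difference in log2 fold change of -1.40 (adjusted p = 0.341). For the others only the difference is given, with the adjusted p. Megf6 differed by -2.13 (adjusted p = 0.341). Cdc25c differed by -3.15 (adjusted p = 0.739). Ifitm3 differed by 1.97 (adjusted p = 0.543). Lgals3bp differed by 2.96 (adjusted p = 0.344). Oasl2 differed by 3.86 (adjusted p = 0.409). Ifit3 differed by 3.71 (adjusted p = 0.555). No explanation was tested for these differences.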

How the results depend on the processing

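Angptl4 had a log2 fold change between 1.39 and 1.6 under all alternatives, and its call was lost in the 6 libraries without a block, without baseline replicate 2, baseline replicate 3 or sham replicate 3, without both replicates numbered 1 and with the 9 P10 libraries alone. The causes of the differences below were not tested.

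Against the 1 gene called at P10 (1 higher, 0 lower), DESeq2 called 121 (57 higher, 64 lower), edgeR without a low-count filter 151 (81 higher, 70 lower), and edgeR on 6 libraries with the replicate block 21 (18 higher, 3 lower). Of the 151 genes, 61 were also called by DESeq2. With voom, voom with sample weights, other scalings, a stricter filter, or the replicate block in 18 libraries, 1 gene was called. Leaving out 1 P10 library gave 0 to 5 calls (0 to 1 higher, 0 to 4 lower), with 0 without baseline replicate 2, baseline replicate 3 or sham replicate 3 and 5 without sham replicate 2, where Bub1, Iqgap3, Troap and Cdc25c, which act in mitosis, were called lower. Chosen after seeing the data, leaving out both replicates numbered 1 gave 0 calls (0 higher), the 9 P10 libraries alone 0 (0 higher), and 6 libraries with a block that sets number 1 against the others 36 (30 higher, 6 lower). Against 0 genes called at P2, DESeq2 called 138 and edgeR without a filter 110. Leaving out 1 P2 library gave 0 to 10, and leaving out both P10 replicates numbered 1 gave 2. Against 0 genes called for the difference between the ages, DESeq2 called 102 and edgeR without a filter 171, and leaving out 1 library gave 0 to 2. Angptl4 kept its sign under all alternatives. Over 276 genes chosen for naming, 148 values had a sign other than in the main fit, all in genes not called there. Whether any of these passed in its alternative was not checked. The common biological coefficient of variation was 0.619 with 3 libraries per group, and for genes at a few CPM counting error adds to it.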
